A study of Mus musculus with 6 samples.

Results

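The 32 genes described here encode proteins that make fatty acids, join them into triglyceride and release them again, with transcription factors that control those genes. They were taken by gene symbol from a list written with earlier results of these data known, and all 32 were found among the 17464 symbols listed for each library. RNA of the mammary gland was sequenced in 6 libraries from wild-type C57BL/6 mice at postnatal day 45, of which 3 were untreated and 3 were given recombinant mouse CXCL14. CXCL14 is a secreted chemokine. How much CXCL14 was given, by which route and for how long is not stated in the labels, nor is it stated that each library came from a separate mouse. The p-values therefore measure only the spread between these libraries, which may be technical. The series title speaks of endothelial cells, whereas the labels give the tissue as mammary gland and describe whole frozen glands.

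Cells build fatty acids from acetyl-CoA, which comes from citrate or from acetate, by carboxylation to malonyl-CoA and repeated condensation on fatty acid synthase. The products are desaturated or elongated, activated to acyl-CoA and esterified onto a glycerol backbone, and lipases later remove them one by one. In the mammary gland of a young mouse most triglyceride lies in the adipocytes of the fat pad, while the secretory epithelium makes its own fat for milk in pregnancy and lactation. SREBP-1, PPAR-gamma and the C/EBP factors are the best known transcriptional regulators of these genes.

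Between 15245981 and 16983352 reads were recovered per library from the deposited FPKM values, and between 11030 and 11652 genes reached 1 FPKM. The recovered reads are the smallest whole numbers that fit, so these totals may fall short of the true depth. FPKM is a fragment count divided by gene length and library total, so levels of different genes can be set side by side. The libraries were mixtures of tissues: 9 B-cell markers summed to between 1315 and 1589 FPKM, 15 luminal epithelial markers to between 167 and 429, and 12 blood endothelial markers to between 487 and 1572. All 15 white adipocyte markers were above 0 in every library. CXCL14 replicate 1 lay next to untreated replicate 1. Over the 30 lipid genes tested, the median absolute difference between those libraries was 0.06 on the log2(FPKM + 1) scale, against between 0.18 and 0.42 for the other 14 pairs. For that reason results are given with all 6 libraries and again without CXCL14 replicate 1. Dropping the treated library nearest to a control must push the groups apart, so the second set of values is no separate support for a difference.

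Scd1, a stearoyl-CoA desaturase that makes oleate and palmitoleate, was the most abundant of the 32 transcripts, with 141, 171 and 176 FPKM in untreated libraries 1, 2 and 3 and 149, 175 and 212 FPKM in CXCL14 libraries 1, 2 and 3. It made up between 21.1% and 23.1% of the summed FPKM of the 32 genes. Next by mean level over the 6 libraries came Cebpb at 77.1 FPKM, Elovl5 at 63.9, Dgat1 at 53.7, Pnpla2 at 53.4, Mgll at 43.4 and Acsl5 at 33.3. Ranges over libraries overlapped for many of these genes below Scd1. Cebpb reached down to 71.6 FPKM and Pnpla2 up to 78.3, while Acsl5 reached up to 36.6 and Dgat1 down to 31.6. Their order is therefore not fully settled. Acacb, with a mean of 2.54 FPKM, was the lowest of the 30 genes with at least 1 FPKM in at least 3 libraries. Pnpla3, an acyl-hydrolase of lipid droplets, lay between 0.161 and 0.735 FPKM and Mlxipl, which encodes the glucose-responsive factor ChREBP, between 0.0879 and 0.320 FPKM. Both were below the filter and were not tested.

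No gene passed the test with all 6 libraries. Limma-trend, with Benjamini-Hochberg adjustment over 11516 genes, called 0 of the 30 lipid genes and 0% of all genes at an adjusted p under 0.05. The smallest adjusted p was 0.573. At an unadjusted p under 0.05 stood 2 of the lipid genes, Dgat1 and Acss2, and 895 of all genes, and voom on recovered reads called 0 genes too, with 902 under that unadjusted level. The log2 fold change, CXCL14 minus untreated, was positive for 23 of the 30 genes, with a median of 0.08, whereas it was positive for 37.17% of all genes, with a median of -0.06. The direction depended on single libraries. Without CXCL14 replicate 3, 12 of the 30 were positive and their median was -0.06. That was near the background, as 36.01% of all genes were then positive, with a median of -0.06. Without untreated replicate 1, 17 of the 30 were positive, with a median of 0.02, beside 37.57% of all genes. Without CXCL14 replicate 1, 22 of the 30 were positive, with a median of 0.19 beside -0.10 over all genes.

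Groups did not overlap for 3 lipid genes. Dgat1 was higher in each CXCL14 library than in any untreated one, a pattern held by 4.74% of all genes, and Acss2 and Acsl5 were lower, a pattern held by 8.36%. These shares come to 1 and 2 of 30 genes for the lipid genes, near the background. When CXCL14 replicate 1 was left out, 1 of the 30 genes, Acss2, was called lower and 0 were called higher. That fit called 2.16% of all genes higher and 3.02% lower. In those 5 libraries Acacb, Fasn, Me1, Acsl3 and Dgat1 did not overlap on the higher side, as did 13.4% of all genes, and Acss2 and Acsl5 did not overlap on the lower side, as did 34.9%. That fit is sensitive to scaling. Median-ratio scaling moved its median over all genes from -0.10 to 0.01 and its calls from 249 higher and 348 lower to 321 higher and 117 lower. Leaving out both libraries numbered 1 called 0 lipid genes and 0.13% of all genes. Array quality weights, which let limma weigh down libraries that deviate from their group, gave CXCL14 replicate 1 a weight of 0.263, and called 3 of the 30 lipid genes (Acss2, Acsl3 and Acsl5) beside 25.2% of all genes.

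**Figure D1:**
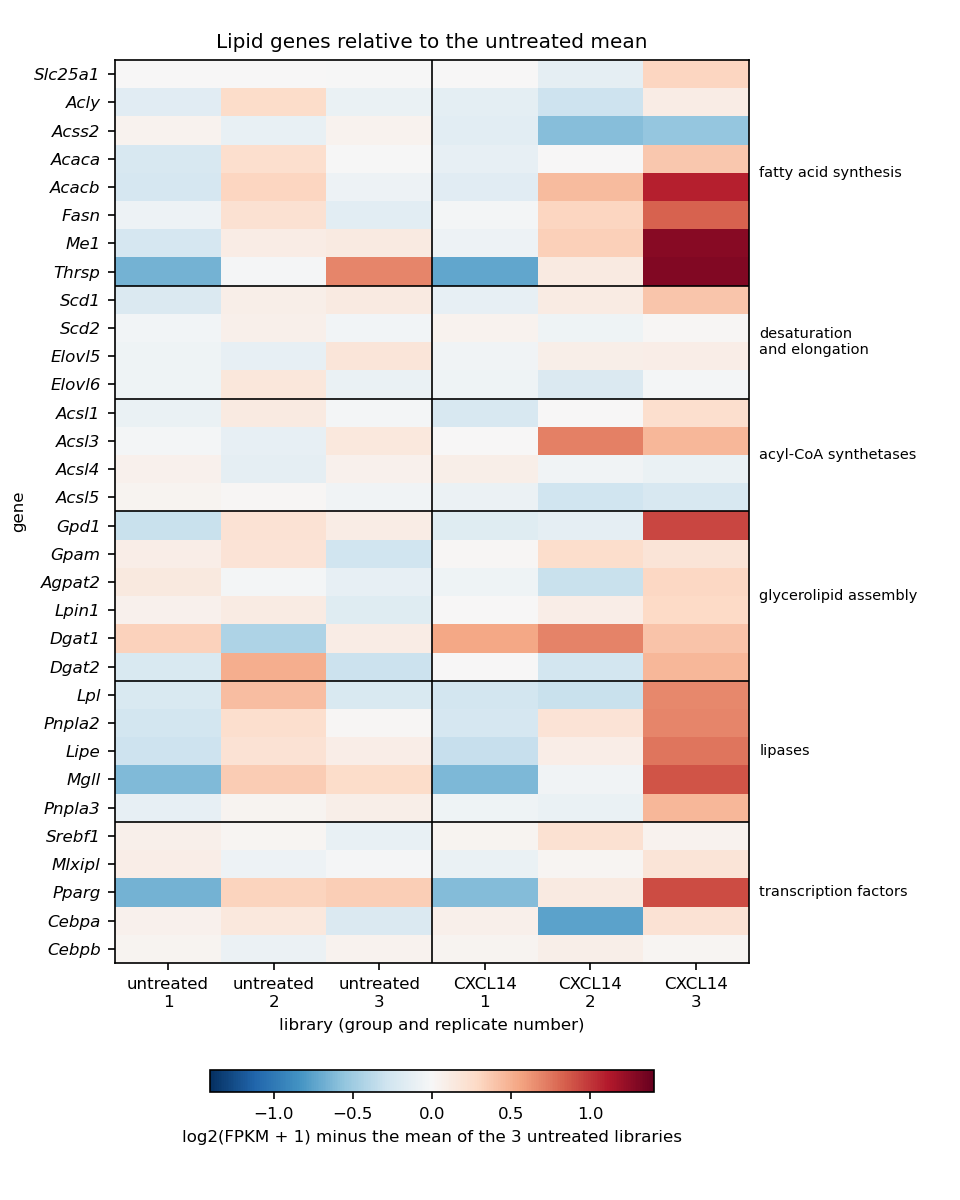
Each cell gives log2(FPKM + 1) of a lipid gene in a library minus that gene's mean over the 3 untreated libraries, with genes in rows by role and libraries in columns. CXCL14 replicate 3 held the highest value of 17 of the 30 tested genes, and the columns of untreated replicate 1 and CXCL14 replicate 1 look alike.

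Among the enzymes that make fatty acids, Acss2 moved most against the others. It encodes a cytosolic and nuclear acetyl-CoA synthetase that turns acetate into acetyl-CoA. Acss2 measured 16.7, 14.96 and 16.7 FPKM in untreated libraries 1, 2 and 3 and 14.5, 10.3 and 10.8 FPKM in CXCL14 libraries 1, 2 and 3. The lowest untreated library lay just above CXCL14 replicate 1, and CXCL14 replicates 2 and 3 lay well below. The means were 16.1 ± 1.02 FPKM untreated and 11.9 ± 2.28 FPKM with CXCL14 (SD, n = 3 each). The log2 fold change was -0.43 (SE 0.14, adjusted p = 0.573 by limma-trend). Without CXCL14 replicate 1, Acss2 fell by 0.57 on the log2 scale (SE 0.09, adjusted p = 0.0420 by limma-trend). The call held with voom on recovered reads (adjusted p = 0.0458), but not with median-ratio scaling (log2 fold change -0.45, adjusted p = 0.0755), with TMM scaling (-0.45, adjusted p = 0.0640) or without both libraries numbered 1 (-0.54, adjusted p = 0.155).

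Fasn, Me1 and Acacb lay on the other side. Fasn, fatty acid synthase, measured 17.6, 21.8 and 16.7 FPKM in the untreated libraries and 18.2, 23.1 and 33.7 FPKM in CXCL14 libraries 1, 2 and 3. CXCL14 replicate 1 fell among the untreated values and replicate 3 stood apart. The means were 18.7 ± 2.69 and 25.0 ± 7.90 FPKM (SD, n = 3 each), with a log2 fold change of 0.37 (SE 0.22, adjusted p = 0.593 by limma-trend), and 0.56 (SE 0.19, adjusted p = 0.129) without CXCL14 replicate 1. Me1, the cytosolic malic enzyme that supplies NADPH for synthesis, was at 3.05, 4.15 and 4.22 FPKM untreated and at 3.53, 5.03 and 10.6 FPKM with CXCL14. Its groups overlapped through CXCL14 replicate 1 and CXCL14 replicate 3 stood well above every other library. The log2 fold change of Me1 was 0.51 (SE 0.33, adjusted p = 0.605 by limma-trend). Without CXCL14 replicate 3 it was 0.13 for Me1 and 0.14 for Fasn. Acacb, the carboxylase whose malonyl-CoA restrains mitochondrial fat oxidation, was at 1.44, 2.53 and 1.74 FPKM untreated and 1.57, 2.89 and 5.09 FPKM with CXCL14. Acaca, the carboxylase of fatty acid synthesis itself, ranged from 3.76 to 6.21 FPKM with overlapping groups. The ratio of Acacb to Acaca was therefore 0.384, 0.454 and 0.383 in the untreated libraries and 0.378, 0.628 and 0.820 in CXCL14 libraries 1, 2 and 3, a description chosen after the values were seen.

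Slc25a1, which exports citrate from mitochondria, and Acly, which cleaves that citrate to acetyl-CoA, differed little, with log2 fold changes of 0.06 (SE 0.12) and -0.11 (SE 0.15). Slc25a1 was at 19.6, 19.6 and 19.4 FPKM untreated and 19.6, 17.8 and 24.3 FPKM with CXCL14. Thrsp, the small nuclear protein Spot 14 that promotes lipogenesis, had the widest range of the 30 tested genes, 4.41-fold from lowest to highest library. It was at 9.48, 15.5 and 25.6 FPKM untreated and at 9.03, 17.2 and 39.9 FPKM with CXCL14. Its log2 fold change of 0.23 had an SE of 0.55, and was -0.30 without CXCL14 replicate 3. Over the 8 genes of fatty acid synthesis the median log2 fold change was 0.16, with 6 positive, and a median of 0.38 without CXCL14 replicate 1.

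Most of the milk secretion genes also stood high in CXCL14 replicates 2 and 3. Glycam1 did not, at 199, 686 and 500 FPKM untreated and 184, 541 and 672 FPKM with CXCL14. Nor did Olah, which did not exceed 0.215 FPKM in any library. The 12 listed markers, caseins and whey proteins among them, had a mean log2(FPKM + 1) of 1.72, 2.13 and 1.85 in the untreated libraries and 1.90, 5.10 and 5.54 in CXCL14 libraries 1, 2 and 3. Macrophage markers went the other way and summed to 319, 241 and 103 FPKM untreated and 319, 52.0 and 83.2 FPKM with CXCL14, while T-cell markers summed to 934, 725 and 927 FPKM and to 861, 555 and 456 FPKM. Neutrophil markers summed to 43.6, 21.5 and 10.1 FPKM and to 36.6, 281 and 382 FPKM. The log2 fold changes of the 7 tested ones were all positive. In CXCL14 replicates 2 and 3, Ltf was at 91.4 and 123 FPKM and S100a9 at 93.4 and 124 FPKM. These are the libraries in which the milk secretion genes stood high. Which cells made Ltf was not tested, so the neutrophil sum need not report neutrophils alone. Csf3r, Cxcr2 and Elane had overlapping groups. Csf3r was at 2.42, 1.44 and 0.641 FPKM untreated and 1.92, 2.19 and 3.13 FPKM with CXCL14. Cxcr2 and Elane were below the filter, and Elane did not exceed 0.209 FPKM in any library. Acss2 was low and Acsl3 high in the same CXCL14 replicates 2 and 3. Fasn, Acacb and Me1 stood out mainly in CXCL14 replicate 3. In CXCL14 replicate 2 they were at 23.1, 2.89 and 5.03 FPKM, a little above their highest untreated values of 21.8, 2.53 and 4.22 FPKM. The part of these cell types in the lipid genes' values was not tested. In bulk tissue, fewer cells of a type and less RNA per cell cannot be told apart.

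The desaturases and elongases were steady. Scd1 had means of 163 ± 19.04 FPKM untreated and 179 ± 31.3 FPKM with CXCL14 (SD, n = 3 each) and a log2 fold change of 0.13 (SE 0.16, adjusted p = 0.753 by limma-trend). Scd2, a paralogue of Scd1 that is prominent in brain and other tissues, stayed between 19.5 and 21.5 FPKM in all 6 libraries. Reads shared by these paralogues could have been split either way in the authors' counting. The ratio of Scd1 to Scd2 was 7.07, 7.95 and 8.87 in the untreated libraries and 7.06, 8.99 and 10.2 with CXCL14, lowest in the libraries numbered 1. Elovl5, which elongates polyunsaturated fatty acids, was at 60.4, 57.8 and 71.0 FPKM untreated and 60.7, 66.4 and 67.1 FPKM with CXCL14, a log2 fold change of 0.04 (SE 0.11). Elovl6, which extends palmitate to stearate, was at 3.70, 4.49 and 3.61 FPKM and 3.70, 3.26 and 3.81 FPKM, a log2 fold change of -0.10 (SE 0.12). Both had overlapping groups.

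The acyl-CoA synthetases, which activate long-chain fatty acids for use, did not share a direction, with 2 of 4 positive, or 3 of 4 under median-ratio scaling. Acsl3, an isoform of the endoplasmic reticulum and of growing lipid droplets, was at 5.56, 5.21 and 6.41 FPKM untreated and at 5.76, 9.93 and 8.24 FPKM with CXCL14. CXCL14 replicates 2 and 3 lay above every other library and CXCL14 replicate 1 among the untreated. Means were 5.73 ± 0.615 and 7.98 ± 2.10 FPKM (SD, n = 3 each), with a log2 fold change of 0.39 (SE 0.19, adjusted p = 0.573 by limma-trend). Without CXCL14 replicate 1 it was 0.58 (SE 0.13, adjusted p = 0.0600 by limma-trend), just outside the threshold. Acsl5, the most abundant isoform here and one known from mitochondria and endoplasmic reticulum, was at 36.6, 35.9 and 34.3 FPKM untreated and at 33.5, 29.2 and 30.4 FPKM with CXCL14. Its groups did not overlap, though CXCL14 replicate 1 lay close below the lowest untreated library. Means were 35.6 ± 1.197 and 31.0 ± 2.27 FPKM (SD, n = 3 each), with a log2 fold change of -0.19 (SE 0.09, adjusted p = 0.573 by limma-trend), and -0.25 (SE 0.08, adjusted p = 0.117) without CXCL14 replicate 1. With median-ratio scaling of all 6 libraries it was -0.11. Acsl4, which prefers arachidonate, was at 11.0, 9.53 and 10.9 FPKM and 11.2, 10.1 and 9.73 FPKM, a log2 fold change of -0.02 (SE 0.10) that was 0.06 under median-ratio scaling. Acsl1, the main isoform of adipocytes, ranged from 3.66 to 5.40 FPKM.

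**Figure D2:**
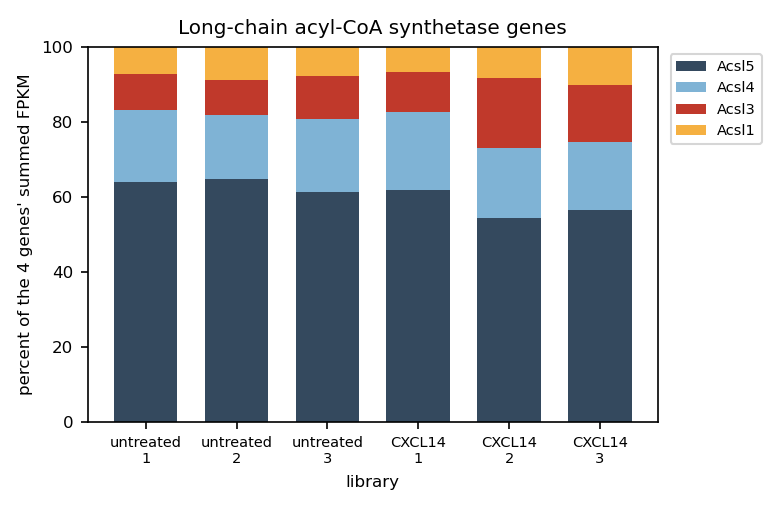
Stacked bars give the percent of the summed FPKM of Acsl1, Acsl3, Acsl4 and Acsl5 that each isoform held in each of the 6 libraries. Acsl3 held between 9.38% and 11.5% in the untreated libraries and 10.6%, 18.5% and 15.3% in CXCL14 libraries 1, 2 and 3, while Acsl5 held between 61.3% and 64.6% and then 62.0%, 54.4% and 56.5%.

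The summed level of the 4 synthetases was 57.3, 55.6 and 55.9 FPKM in untreated libraries 1, 2 and 3. It was 54.1, 53.6 and 53.8 FPKM in CXCL14 libraries 1, 2 and 3, each a little below every untreated sum. The sums changed little beside the share of Acsl3 in CXCL14 replicates 2 and 3. The ratio of Acsl3 to Acsl5 was 0.152, 0.145 and 0.187 in the untreated libraries and 0.172, 0.341 and 0.271 in CXCL14 libraries 1, 2 and 3. It was chosen after the values were seen and is given without a test.

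Upstream sequence was available for 26 of the 32 genes, and windows for Scd1, Scd2, Dgat1, Dgat2, Lpl and Gpd1 were not used here. The 4 shown belong to Acss2 and Acsl5, whose groups did not overlap, and to Acsl3 and Fasn, whose groups did not overlap without CXCL14 replicate 1. Acacb and Me1 also did not overlap without that library, and their windows are not shown. Each shown window runs from 250 bases before to 50 bases after the annotated start, 5′ to 3′ on the gene's strand, from RefSeq on GRCm38.p6, which is not the build named by the submitters. Capitals mark matches to CCAAT or its reverse complement ATTGG, the box bound by NF-Y, a factor known to act with SREBP at lipogenic promoters. The windows lie at chr2:155517793-155518092 on the plus strand, chr19:55253119-55253418 on the plus strand, chr1:78657575-78657874 on the plus strand and chr11:120824498-120824797 on the minus strand.
Acss2: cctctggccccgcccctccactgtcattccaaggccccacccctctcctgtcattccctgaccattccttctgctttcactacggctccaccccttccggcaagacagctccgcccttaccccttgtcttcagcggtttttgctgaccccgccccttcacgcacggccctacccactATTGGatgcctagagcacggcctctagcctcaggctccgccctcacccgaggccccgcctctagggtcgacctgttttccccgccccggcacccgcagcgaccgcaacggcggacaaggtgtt
Acsl5: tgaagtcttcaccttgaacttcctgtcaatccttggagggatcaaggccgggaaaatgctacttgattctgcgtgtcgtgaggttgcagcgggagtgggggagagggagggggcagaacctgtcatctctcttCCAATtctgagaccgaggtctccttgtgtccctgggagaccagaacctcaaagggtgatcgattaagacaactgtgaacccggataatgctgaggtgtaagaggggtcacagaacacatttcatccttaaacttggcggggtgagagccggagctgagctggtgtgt
Acsl3: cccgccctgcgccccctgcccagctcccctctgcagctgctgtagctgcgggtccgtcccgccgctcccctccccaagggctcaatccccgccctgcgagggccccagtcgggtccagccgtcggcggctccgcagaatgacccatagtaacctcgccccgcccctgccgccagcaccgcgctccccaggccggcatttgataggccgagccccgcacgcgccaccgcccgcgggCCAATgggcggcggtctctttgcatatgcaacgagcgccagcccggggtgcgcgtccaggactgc
Fasn: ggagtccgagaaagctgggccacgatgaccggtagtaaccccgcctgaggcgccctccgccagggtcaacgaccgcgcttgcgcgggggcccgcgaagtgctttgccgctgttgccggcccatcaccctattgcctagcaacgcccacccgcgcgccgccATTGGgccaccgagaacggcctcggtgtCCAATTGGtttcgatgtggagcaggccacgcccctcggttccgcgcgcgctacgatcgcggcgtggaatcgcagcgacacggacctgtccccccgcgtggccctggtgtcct
Acss2, Acsl5 and Acsl3 each held 1 match and Fasn held 3, of which 2 overlap in opposite orientation. Of the windows not shown, that of Acacb held 1 match, and Me1 held 0 in its window 1 and 1 in its window 2. Over all 36 windows of the 26 genes the box was found in 18, belonging to 16 genes, and in 37.4% of 32851 windows genome-wide. On both strands, the sterol response element TCACNCCAC was found for Acsl1 and Mlxipl (1.24% of all windows), and the E-box CACGTG for Elovl5, Lipe, Mgll, Mlxipl and Slc25a1 (7.15% of all windows). A match is a run of letters and not a shown binding site.

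Triglyceride assembly was marked by Dgat1. Dgat1 and Dgat2 encode unrelated enzymes that both attach the last fatty acid to diacylglycerol. Dgat1 was at 53.9, 31.6 and 46.3 FPKM in untreated libraries 1, 2 and 3 and at 62.9, 70.3 and 57.1 FPKM in CXCL14 libraries 1, 2 and 3. Every CXCL14 library, replicate 1 included, lay above every untreated library. Means were 43.9 ± 11.3 and 63.4 ± 6.61 FPKM (SD, n = 3 each), with a log2 fold change of 0.55 (SE 0.20, adjusted p = 0.573 by limma-trend). It was 0.55 again without CXCL14 replicate 1 (SE 0.24, adjusted p = 0.193) and 0.62 without CXCL14 replicate 3, but 0.33 without untreated replicate 2, the lowest library. Dgat2 was at 5.68, 10.0 and 5.26 FPKM untreated and 6.76, 5.44 and 9.63 FPKM with CXCL14, and its groups overlapped. Where Dgat1 was lowest, in untreated replicate 2, Dgat2 was highest.

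Of the enzymes before that step, none stood apart between groups. Lpin1, a phosphatidate phosphatase, was at 5.05, 5.26 and 4.15 FPKM untreated and 4.82, 5.19 and 6.04 FPKM with CXCL14, a log2 fold change of 0.13 (SE 0.13). Gpam, the mitochondrial glycerol-3-phosphate acyltransferase, was at 3.99, 4.37 and 2.86 FPKM and 3.74, 4.56 and 4.32 FPKM, a log2 fold change of 0.15 (SE 0.15). Gpd1, which makes glycerol-3-phosphate from a glycolytic intermediate, lay between 2.97 and 4.63 FPKM in 5 libraries and at 8.38 FPKM in CXCL14 replicate 3. Agpat2, the next acyltransferase of the chain, ranged from 5.93 to 9.51 FPKM, with a log2 fold change of -0.03 (SE 0.17). Over the 6 genes of assembly the median log2 fold change was 0.14, and 5 were positive.

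**Figure D3:**
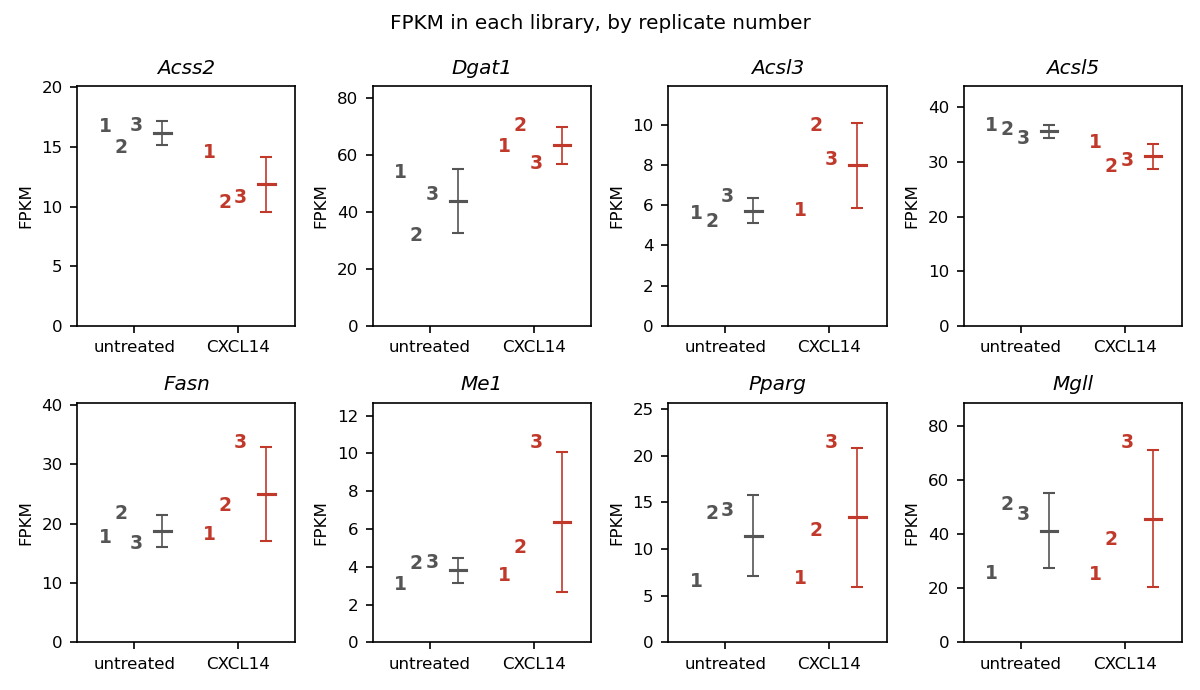
FPKM of 8 lipid genes by group, with each digit standing for the replicate of that number, and a bar and whiskers for the group mean and SD (n = 3). Dgat1, Acss2 and Acsl5 do not overlap between groups, whereas Pparg and Mgll are lowest in both libraries numbered 1 and highest in CXCL14 replicate 3, at 21.4 and 73.7 FPKM.

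The lipases differed between libraries more than between groups. Pnpla2, the adipose triglyceride lipase that removes the first fatty acid, was at 40.3, 56.9 and 49.0 FPKM untreated and 40.8, 55.1 and 78.3 FPKM with CXCL14. Lipe, the hormone-sensitive lipase that acts on diacylglycerol, was at 13.4, 19.3 and 17.9 FPKM and 13.2, 17.9 and 28.7 FPKM. Mgll, which removes the last fatty acid, was at 25.5, 51.0 and 47.3 FPKM and 25.2, 38.0 and 73.7 FPKM. All 3 were low in both libraries numbered 1, intermediate in the next 3 and highest in CXCL14 replicate 3. Their log2 fold changes were 0.21 (SE 0.24), 0.17 (SE 0.28) and 0.07 (SE 0.42), and without CXCL14 replicate 3 they were -0.02, -0.11 and -0.34. Lpl, which releases fatty acids from circulating triglyceride at the vessel wall, was at 21.4, 34.0 and 21.5 FPKM untreated and 20.8, 20.04 and 40.6 FPKM with CXCL14, a log2 fold change of 0.04 (SE 0.31). Its anchor on capillaries, Gpihbp1, was at 91.2, 177 and 218 FPKM and 92.7, 138 and 265 FPKM.

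Of the transcription factors, Pparg followed the lipases, and Srebf1 and Cebpb hardly varied. Pparg, the master factor of adipocyte formation, was at 6.497, 13.8 and 14.1 FPKM untreated and 6.80, 11.98 and 21.4 FPKM with CXCL14, a log2 fold change of 0.15 (SE 0.43) that was -0.24 without CXCL14 replicate 3. Srebf1, the SREBP-1 gene, was at 20.5, 19.9 and 18.0 FPKM and 19.96, 22.7 and 20.2 FPKM, a log2 fold change of 0.10 (SE 0.10). Cebpb, an early adipogenic and inflammatory factor, stayed between 71.6 and 80.3 FPKM, a log2 fold change of 0.05 (SE 0.08). Cebpa, which maintains mature adipocytes, was at 4.18, 4.50 and 3.31 FPKM and 4.24, 1.96 and 4.72 FPKM, lowest in CXCL14 replicate 2. Its log2 fold change was -0.16 (SE 0.26), and 0.14 without CXCL14 replicate 2. Transcript levels of Srebf1 do not report the cleavage that activates its protein.

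**Figure D4:**
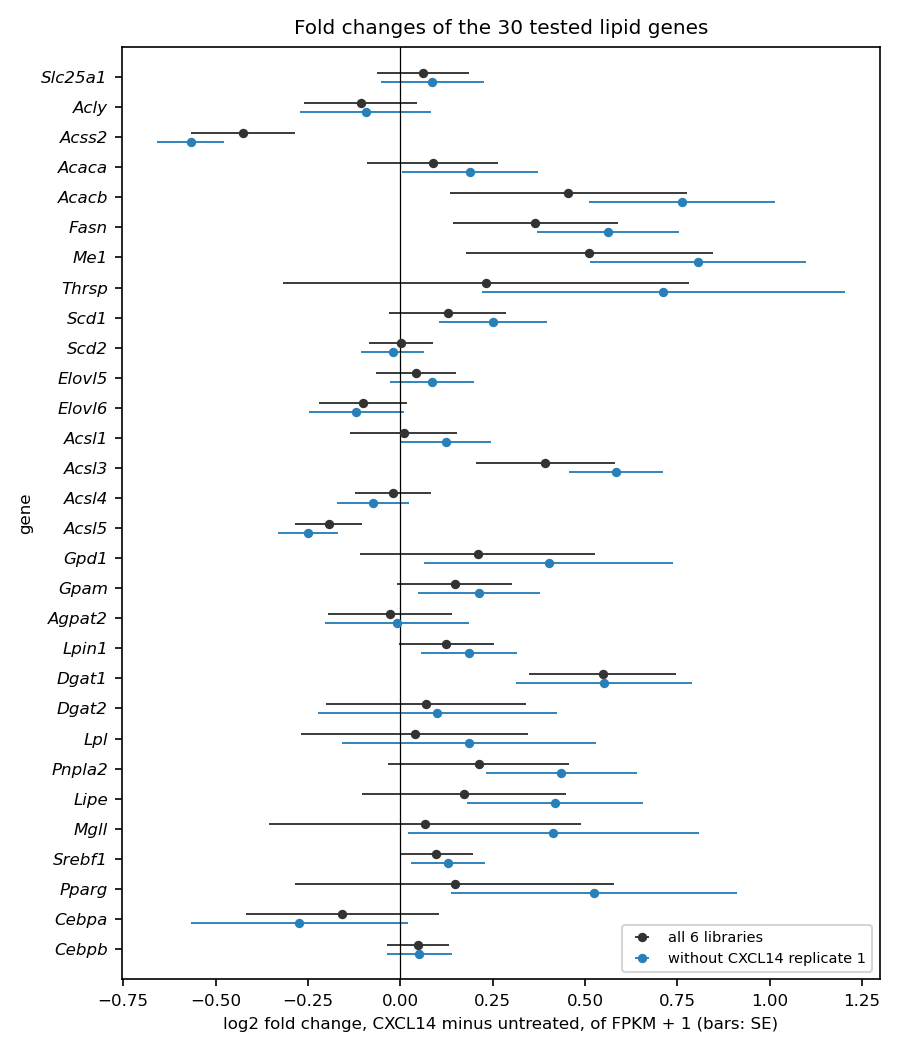
Log2 fold change on the log2(FPKM + 1) scale, CXCL14 minus untreated, with its SE for each of the 30 tested lipid genes, for the 6 libraries and for the 5 left when CXCL14 replicate 1 is dropped. With all 6 libraries Dgat1 has the highest value, 0.55, and Acss2 the lowest, -0.43, and most intervals of 1 SE are wide beside the value.

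Markers of white adipocytes and of blood endothelium moved with many of these genes. The 15 adipocyte markers, among them adiponectin, leptin and perilipin-1 and none of the 32 genes, summed to 931, 1838 and 1996 FPKM in untreated libraries 1, 2 and 3 and to 1009, 1916 and 3222 FPKM in CXCL14 libraries 1, 2 and 3. Most of that sum was Fabp4, a fatty acid carrier, with 880.0 FPKM in untreated replicate 1 and 2968 FPKM in CXCL14 replicate 3. Adipoq was at 1.89 and 11.2 FPKM in the same libraries. The sum therefore reports mainly Fabp4, and which cells made Fabp4 was not tested. The mean log2(FPKM + 1) over the same 15 markers, which weighs them equally, was 2.09, 2.78 and 2.80 untreated and 2.202, 2.57 and 3.45 with CXCL14. Blood endothelial markers, 12 in all, had the same lowest and highest libraries and summed to 487, 1027 and 794 FPKM untreated and to 511, 996 and 1572 FPKM with CXCL14. A lowest value in a library numbered 1 and a highest value in CXCL14 replicate 3 was shared by 11 of the 30 lipid genes and by 9.82% of all genes. These 11 were Acaca, Acacb, Me1, Thrsp, Scd1, Acsl1, Gpd1, Pnpla2, Lipe, Mgll and Pparg. The median log2 fold change of the 11 tested adipocyte markers was 0.19, and -0.24 without CXCL14 replicate 3. For the 12 endothelial markers, all positive with 6 libraries, it was 0.27 and -0.13, and for the 4 tested lipases 0.12 and -0.20. The part of either cell type in the lipid genes' values was not tested. Acss2, Acsl3, Acsl5 and Dgat1 had other highest or lowest libraries. Brown adipocyte markers, 8 in all, summed to between 1.85 and 3.83 FPKM.

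**Figure D5:**
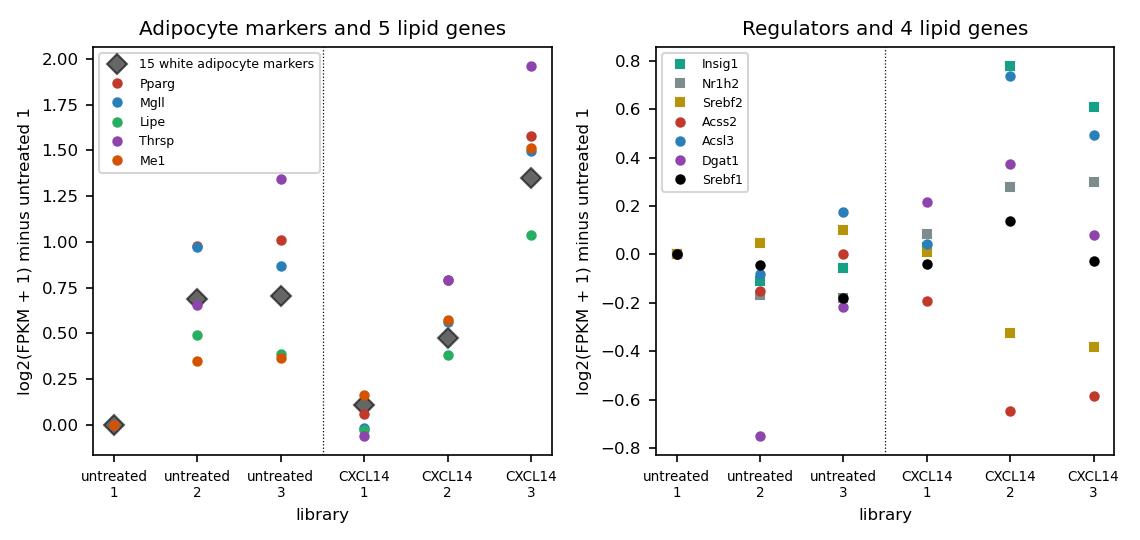
Points give log2(FPKM + 1) in each library minus its value in untreated replicate 1, on the left for the mean of 15 white adipocyte markers (diamonds) and 5 lipid genes, on the right for 3 regulators (squares) and 4 lipid genes (circles). On the left the libraries numbered 1 are lowest and CXCL14 replicate 3 highest, and on the right CXCL14 replicates 2 and 3 are set apart from the other 4 for Insig1, Srebf2, Acss2 and Acsl3.

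Beyond the 32 genes, 102 of 103 listed genes of 7 related groups were found, and none was called with all 6 libraries. Among 14 regulators of SREBP, LXR and ChREBP, 6 were positive and 8 negative. Insig1, which holds SREBP in the endoplasmic reticulum and is itself an SREBP target, was at 27.4, 25.3 and 26.3 FPKM untreated and 27.99, 47.8 and 42.3 FPKM with CXCL14. Insig1 alone of the 14 was called without CXCL14 replicate 1, with a log2 fold change of 0.75 (SE 0.09, adjusted p = 0.0302 by limma-trend). That call held under both other scalings and was lost without both libraries numbered 1 (adjusted p = 0.123 by limma-trend). Srebf2, the factor of cholesterol synthesis, was at 39.2, 40.6 and 42.1 FPKM and 39.6, 31.1 and 29.9 FPKM, a gene named after its values were seen (log2 fold change -0.40 without CXCL14 replicate 1, adjusted p = 0.0529 by limma-trend). The LXR-beta gene Nr1h2 was at 89.5, 79.6 and 78.9 FPKM and 94.9, 109 and 110.3 FPKM, with no overlap and a log2 fold change of 0.34 (SE 0.10, adjusted p = 0.573 by limma-trend).

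All 7 tested genes of the NADPH supply list, which leaves out Me1, had negative log2 fold changes. Their median was -0.21, the opposite sign to Me1. Of all genes 37.17% were positive in that fit, with a median of -0.06. With median-ratio scaling 6 of the 7 were negative and the median was -0.13, beside 52.4% of all genes positive. Whether each of these enzymes supplies NADPH for synthesis here was not tested. Me2, a mitochondrial malic enzyme, was at 9.64, 8.65 and 9.42 FPKM untreated and 8.55, 6.13 and 5.26 FPKM with CXCL14, and it fell without CXCL14 replicate 1 by 0.62 on the log2 scale (SE 0.10, adjusted p = 0.0429 by limma-trend). That call of Me2 was lost with median-ratio scaling (adjusted p = 0.0729), TMM scaling (adjusted p = 0.0646) and without both libraries numbered 1 (adjusted p = 0.155). Pgd, of the pentose phosphate pathway, had -0.21 (SE 0.10) with all libraries. The other groups were mixed, with 0 calls in either fit, and their counts moved by up to 3 genes with the scaling. For the other desaturases and elongation enzymes 3 of 9 were positive (Hsd17b12 -0.29, Hacd1 -0.26), and for other glycerolipid enzymes 6 of 12 (Agpat4 -0.22, Bscl2 -0.22). The list of lipolysis and lipase cofactors had 6 of 12 positive (Hilpda 0.23, Pnpla8 0.17). The list of fatty acid uptake and other activation had 6 of 13 (Slc27a4 -0.30, Acot2 -0.27). Of 10 adipogenic factors 7 were positive, among them Ddit3 (0.62), which encodes the stress factor CHOP, and 3 were negative, among them Ppargc1b (-0.22).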

How the data were processed

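Total RNA of 6 frozen mammary glands was sequenced, per the labels' protocol, with an NEBNext Ultra kit. The authors deposited 1 FPKM value per gene symbol and library. Per the submitters' processing notes, Bowtie2 2.2.3, HISAT2 2, HTSeq 0.6.0 and mm8 were used, with no role or order. The sources used here do not say whether strand was used or how overlapping or near-identical genes were treated, so paralogues are uncertain. For all 17464 symbols the FPKM values could be fitted by whole read numbers (tolerance 0.004 reads). The smallest fitting numbers were taken, so the reads of a gene are known only up to a common factor. Those recovered reads served for depth, TMM scaling, voom and the simulated data.

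Genes with at least 1 FPKM in at least 3 libraries were kept, which left 11516. They were tested as log2(FPKM + 1) with limma 3.58.1 in R 4.3.3 (limma-trend, Benjamini-Hochberg adjustment, called at an adjusted p under 0.05), a scale that understates the change of low genes. The code was tested on simulated data. Alternatives were a pseudocount of 0.1, no filter, median-ratio and TMM scaling, voom, a replicate block, array quality weights and libraries left out. The 32 genes and all lists were chosen with earlier results of these data known. Of each role group the 3 genes with the smallest unadjusted p were given in full, with any called or not overlapping. The 2 smallest of each related group were named.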

Additional observations from a re-analysis of the deposited data

How the results depend on the processing

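With all 6 libraries, 0 genes and 0 lipid genes were called under limma-trend, a pseudocount of 0.1, no filter, median-ratio or TMM scaling and voom on recovered reads. Array quality weights called 2903 genes and 3 lipid genes. Leaving out 1 library gave between 0 and 597 calls, with 597 without CXCL14 replicate 1 and 0 without each other library, and between 0 and 1 lipid genes. Leaving out both libraries numbered 1 called 15. Without CXCL14 replicate 1, median-ratio scaling called 438, TMM scaling 443 and voom 419 genes, with 0, 0 and 1 lipid genes, and the lipid genes' median log2 fold change was 0.30, 0.29 and 0.21. These 3 were added after seeing the data. Leaving out 1 library moved that median between -0.06 and 0.19.

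Of 306 values (18 named lipid genes under 17 alternatives), 288 kept direction and side of the threshold, 5 passed it (Acss2 3 times, Acsl3 and Acsl5 once each) and 13 changed sign. Acsl4 was 0.0588 with median-ratio and 0.0516 with TMM scaling, and 0.0456 and 0.0372 with those scalings without CXCL14 replicate 1. Leaving out 1 library gave between -0.0822 and 0.0166 for Acsl4, -0.34 and 0.14 for Cebpa, -0.0172 and 0.13 for Elovl5, -0.11 and 0.42 for Lipe, -0.34 and 0.41 for Mgll, and -0.0250 and 0.44 for Pnpla2. The cause was not tested.

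Same-numbered libraries correlated in their deviations from the group means at 0.693, -0.298 and 0.059. Untreated replicate 3 with CXCL14 replicate 2 gave 0.601, and untreated replicate 2 with CXCL14 replicate 3 gave 0.557. With 3 libraries per group these deviations depend on each other. The values therefore cannot decide whether the numbers pair samples. With a replicate block, limma-trend called 0 genes and 0 lipid genes, with 802 genes at an unadjusted p under 0.05.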

Other observations

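Levels of lipid genes relative to adipocyte markers within a library were also computed, after the values were seen and without a test. The ratio of Lipe to Fabp4, a fatty acid carrier on the adipocyte list, was 0.0153, 0.0112 and 0.00953 in the 3 untreated libraries. It was 0.0139, 0.00988 and 0.00966 in CXCL14 libraries 1, 2 and 3. Which cells made Fabp4 was not tested, so this ratio need not be a level per adipocyte. The libraries numbered 1 held the highest ratios, although their Lipe levels were the lowest. The ratio of Fasn to Fabp4 was 0.0200, 0.0126 and 0.00892 untreated and 0.0191, 0.0128 and 0.0113 with CXCL14. Pparg relative to Adipoq, the adiponectin gene, was 3.44, 2.46 and 2.79 untreated and 2.42, 2.62 and 1.91 with CXCL14, lowest in the library where Pparg itself was highest.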
